A study of Mus musculus with 6 samples.

Results

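The 40 vessel genes described here mark the cells that build blood and lymph vessels. They were listed by name, and all 40 were measured among the 19937 genes with 1 symbol on the array. They comprise 19 blood endothelial genes, 5 lymphatic endothelial genes, 9 genes of pericytes, the mural cells of capillaries, and 7 genes of the smooth muscle around larger vessels. Each of the 40 genes had 1 probe set with its symbol alone, so no choice between probe sets entered these values.

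RNA came from inguinal white adipose tissue, the subcutaneous fat depot of the groin, of male mice on a C57BL/6 background aged 5 weeks. There were 3 wild-type (WT) mice and 3 ATF7 KO mice, littermates from crosses of Atf7 heterozygotes, with 1 array each. The sources used here give neither the part of Atf7 removed in the KO nor any restriction of the knockout to a cell type. The question behind the comparison, from the series title, is what ATF7 does in the maturation of adipocytes and in their thermogenic genes.

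Fat is a densely vascularised tissue in which nearly every adipocyte touches a capillary. Endothelial cells line the vessels and are held together by junction proteins, and they grow in response to vascular endothelial growth factors (VEGFs) and angiopoietins made by neighbouring cells. Pericytes are drawn to new capillaries by platelet-derived growth factor and share the capillary wall with them, while contractile smooth muscle sets the width of arterioles. Lymphatic vessels drain fluid and immune cells from the depot into the inguinal lymph node, which lies within the same fat pad.

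Values are log2 expression, so a difference of 1 is a doubling of signal, and levels of different probe sets are not compared with each other. Array medians lay between 6.41 and 6.49, and the 6 arrays correlated at 0.965 to 0.995 across genes. KO replicate 3 stood furthest apart, correlating at no more than 0.982 with any other array. The Atf7 probe set 10433032 was at 6.22, 6.53 and 6.49 in the KO arrays and at 8.95, 9.2 and 9.07 in the WT arrays, without overlap. The other Atf7 probe set, 10433034, was at 9.23, 9.1 and 9.42 in KO and at 9.34, 9.39 and 9.52 in WT. As a check of the labelled tissue, all 16 adipocyte markers measured lay above the median gene (6.89), the lowest being the leptin gene Lep at a mean of 10.02.

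Across the vessel genes the knockout arrays tended to be higher in pericyte and blood endothelial genes and showed no shared direction in lymphatic genes. In blood endothelial genes the level of KO replicate 2 (-0.05) lay within that of the WT arrays (-0.19 to 0.01). With a lymphocyte score in the fit, described below, 12 of 19 blood endothelial genes were positive and 0 reached an unadjusted p under 0.05. For pericyte genes these counts were 8 of 9 and 1. Of the 40 genes, 34 had a positive difference (KO minus WT) and 6 a negative one, with a median log2 difference of 0.20, where the median over all 19937 genes was 0.01 and 10575 of them were positive. No vessel gene passed limma's adjusted p of 0.05, and of all genes 0% passed it. The adjusted p-values of the 40 genes lay between 0.622 and 0.970. At an unadjusted p under 0.05, 8 of the 40 genes were higher in KO and 0 lower, against 4.99% of all genes higher and 2.48% lower. The groups did not overlap in 10 of the 40 genes, with KO above in 10 and below in 0, against 7.96% and 5.97% of all genes. The members share their arrays and their cells, so they are not independent of one another. In whole tissue, more cells of a type and more RNA per cell cannot be told apart.

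**Figure D1:**
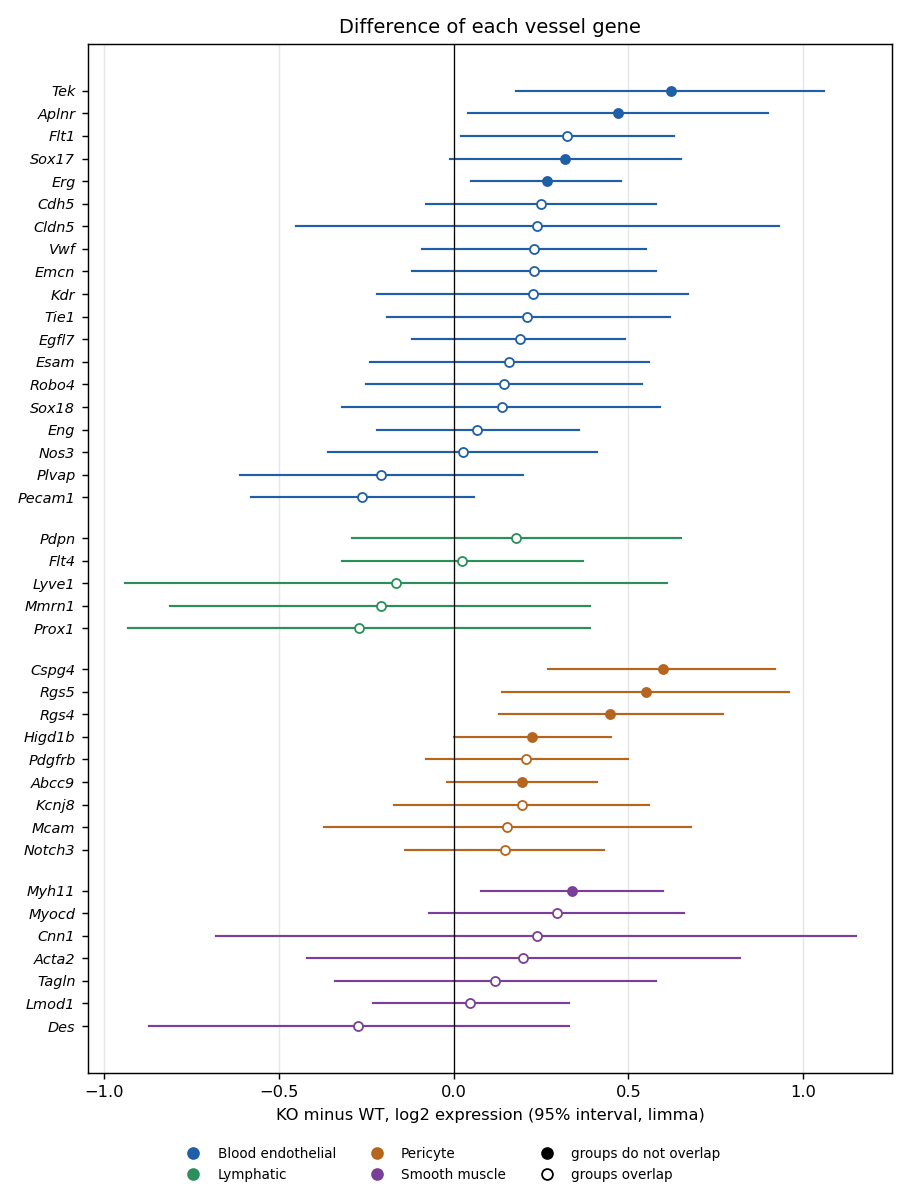
KO minus WT difference in log2 expression of each of the 40 vessel genes (points) with limma's 95% interval (lines), n = 3 arrays per group, coloured by class and ordered by size within it. All 9 pericyte genes lie to the right of 0 and Tek has the largest difference at 0.62, while the 5 lymphatic intervals all include 0.

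The vessel genes did not move alike on the 3 KO arrays. KO replicate 1 exceeded every WT array in 24 of the 40 genes and KO replicate 3 in 25, where they did so for 28.7% and 38.6% of all genes. KO replicate 2 did so in 11 of the 40 and lay within the WT range in 24, against 21.8% of all genes above. The level of the 40 genes (the mean after centring each gene on its mean over the 6 arrays) was 0.15 in KO replicate 1, -0.06 in KO replicate 2 and 0.17 in KO replicate 3. In WT replicates 1, 2 and 3 it was -0.07, -0.13 and -0.06. KO replicate 2 was thus at the upper end of the WT arrays, and the other KO arrays were above them. Without KO replicate 2, 20 of the 40 genes showed no overlap, and without WT replicate 1 there were 16, but fewer arrays separate more easily, and 38.3% and 22.6% of all genes did so.

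**Figure D2:**
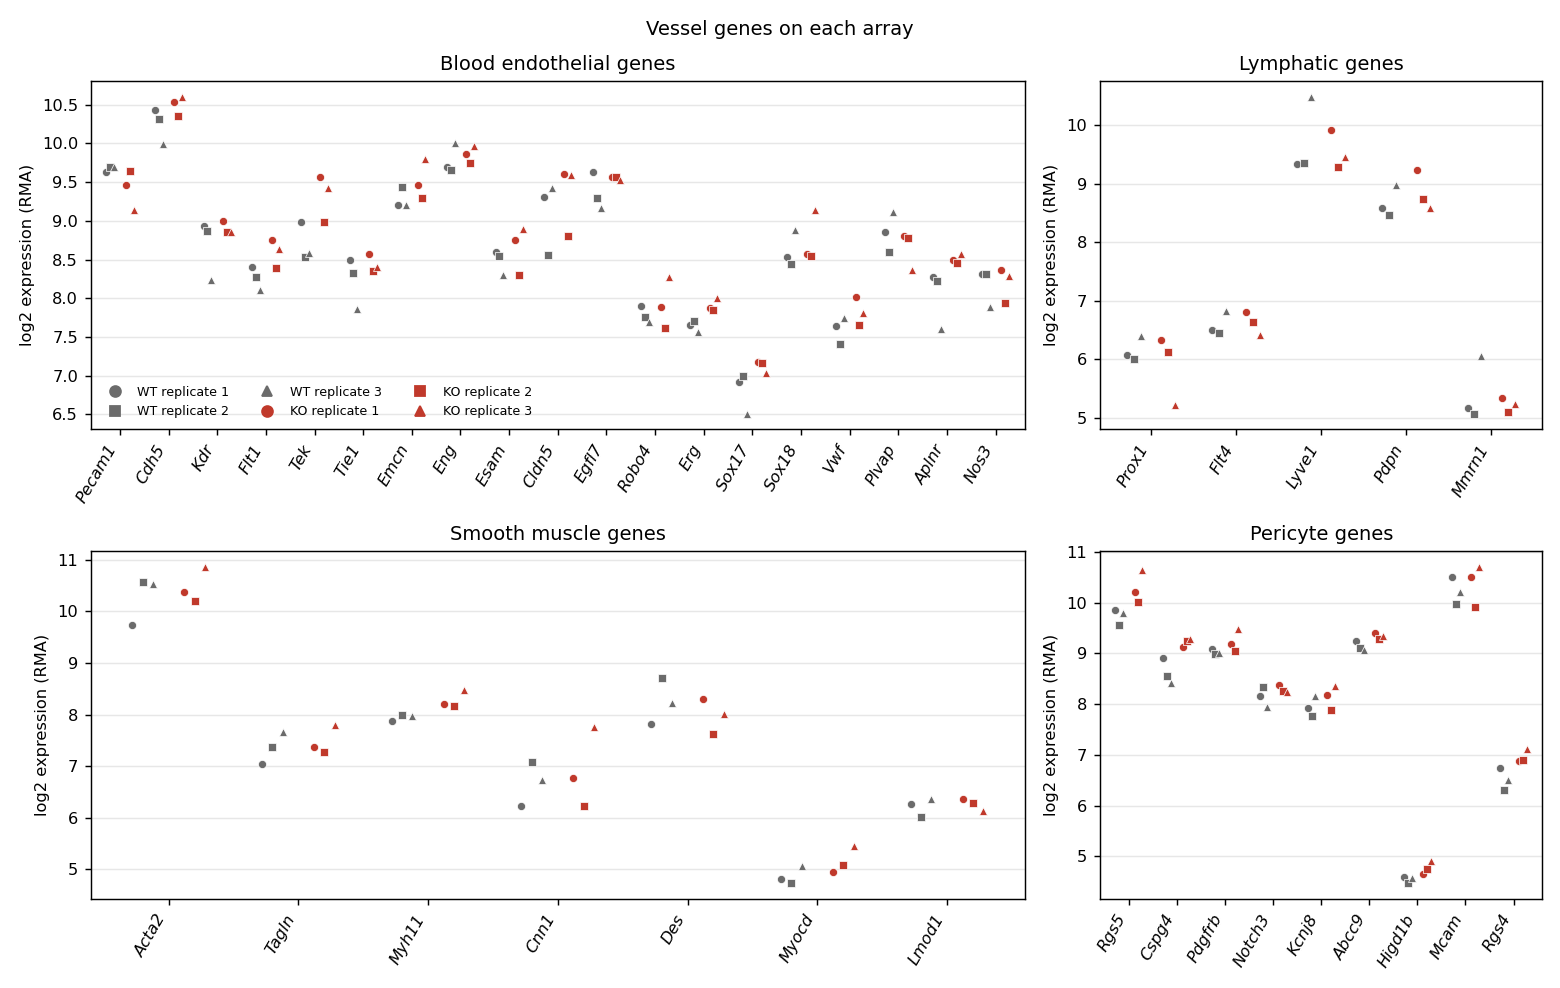
Log2 expression of the 40 vessel genes on each of the 6 arrays, with WT in grey and KO in red and the marker shape giving the replicate number. In Tek, Cspg4, Rgs5 and Myh11 every KO point lies above every WT point, and in the lymphatic genes WT replicate 3 is the highest array in 4 of 5 genes.

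Among the blood endothelial genes, 17 of 19 were positive with a median log2 difference of 0.23. KO replicates 1 and 3 exceeded every WT array in 13 and 12 of the 19, against 28.7% and 38.6% of all genes. KO replicate 2 did so in 4 (21.1%), against 21.8% of all genes, and its class level of -0.05 lay below that of WT replicate 1 (0.01). At an unadjusted p under 0.05, 4 were higher and 0 lower, against 4.99% and 2.48% of all genes. The groups did not overlap in 4, with KO above, against 7.96% of all genes above. Leaving out KO replicate 3 lowered the count of 4 at that p to 1, where 5.0% of all genes reached it in either direction. Leaving out KO replicate 1 or WT replicate 3 lowered it to 2, against 3.8% and 3.96% of all genes. The smallest p belonged to a growth factor receptor. Tek encodes the receptor for angiopoietins, which steadies mature vessels. It was at 9.57, 8.99 and 9.42 in the KO arrays and at 8.98, 8.53 and 8.59 in the WT arrays. The groups did not overlap, but KO replicate 2 exceeded WT replicate 1 by only the last digit. The difference was 0.62 (SE 0.19), or 1.54-fold, with an adjusted p of 0.622. Tie1, the orphan partner of Tek in the same receptor family, was at 8.57, 8.35 and 8.40 in KO and at 8.50, 8.33 and 7.86 in WT, so the groups overlapped, and its difference was 0.21 (SE 0.17). WT replicate 3 was the low array in Tie1, and without it the difference was 0.025.

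The VEGF receptors of blood endothelium overlapped between groups. Flt1 encodes VEGF receptor 1, which also acts as a trap for the ligand. It was at 8.75, 8.39 and 8.64 in KO and at 8.40, 8.28 and 8.11 in WT, with KO replicate 2 just under WT replicate 1. Its difference of 0.32 (SE 0.13) had an unadjusted p of 0.0382 and an adjusted p of 0.622 from limma. Kdr encodes VEGF receptor 2, the main signalling receptor. Its values were 9.0, 8.85 and 8.85 in KO and 8.93, 8.87 and 8.23 in WT. Again WT replicate 3 was the only low array, and the difference of 0.23 was 0.002 without it.

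Aplnr, the receptor for the peptide apelin, which is active in growing vessels, was at 8.49, 8.45 and 8.57 in KO and at 8.28, 8.22 and 7.6 in WT. The groups did not overlap, and the difference was 0.47 (SE 0.18, 1.39-fold, adjusted p 0.622 by limma), or 0.255 without WT replicate 3, which was the low array once more. Eng, a co-receptor for transforming growth factor beta and bone morphogenetic proteins, differed by 0.07 (95% interval -0.22 to 0.36). Robo4, an endothelial roundabout receptor that limits leakage, differed by 0.15 (interval -0.25 to 0.54). Both groups overlapped in these 2 genes.

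Of the endothelial transcription factors in the list, Erg and Sox17 showed no overlap. Erg, an ETS family factor that maintains endothelial identity, was at 7.87, 7.85 and 8.0 in KO and at 7.65, 7.71 and 7.56 in WT. Its difference was small, 0.27, but the spread was narrow (SE 0.09), and it lay between 0.22 and 0.30 when each array was left out in turn. Sox17, a factor of arterial endothelium, was at 7.18, 7.16 and 7.04 in KO and at 6.92, 6.99 and 6.51 in WT, a difference of 0.32 (SE 0.14, unadjusted p 0.0577). Sox18, a relative used in blood and lymphatic development, overlapped between groups, with a difference of 0.14 (SE 0.19), and was high in KO replicate 3 (9.14) and WT replicate 3 (8.88).

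Junction and wall proteins gave mostly small positive differences with overlapping groups. Cdh5, the adherens junction cadherin of endothelium, was at 10.54, 10.35 and 10.60 in KO and at 10.43, 10.32 and 9.99 in WT, a difference of 0.25 (SE 0.14). Emcn, a sialomucin of capillary and venous endothelium, differed by 0.23 (SE 0.15), Esam, an adhesion molecule of tight junctions, by 0.16 (SE 0.17) and Egfl7, a secreted vessel guidance protein, by 0.19 (SE 0.13). Vwf, the clotting factor carrier stored in endothelial granules, differed by 0.23 (SE 0.14). Cldn5, a claudin that seals endothelial junctions, spread most widely of these. It was at 9.60, 8.81 and 9.59 in KO and at 9.31, 8.56 and 9.42 in WT, so replicate 2 was the low array of each group, and the interval of its difference (0.24) ran from -0.45 to 0.93. Nos3, the endothelial nitric oxide synthase, differed by 0.03 (interval -0.36 to 0.41).

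Pecam1 and Plvap were the 2 blood endothelial genes with negative differences. Pecam1, the adhesion molecule CD31, was at 9.46, 9.64 and 9.14 in KO and at 9.63, 9.70 and 9.69 in WT. KO replicate 3 was the lowest array and KO replicate 2 lay inside the WT range. Its difference of -0.26 (SE 0.14, 1.2-fold lower) was -0.12 without KO replicate 3. Plvap, which forms the diaphragms of endothelial pores, was at 8.80, 8.78 and 8.37 in KO and at 8.86, 8.60 and 9.11 in WT, a difference of -0.21 (SE 0.17), and -0.07 without KO replicate 3. Both genes are also known from leukocytes or lymph node vessels, whose markers were lowest on that same array. The part of such cells in the Pecam1 and Plvap values was not tested beyond a lymphocyte covariate, given below.

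The pericyte genes were the most uniform class. All 9 had positive differences, from 0.15 to 0.60 with a median of 0.21. KO replicate 1 exceeded every WT array in 9 of 9 genes, KO replicate 3 in 8 and KO replicate 2 in 5. Of all genes, 28.7%, 38.6% and 21.8% did so on these arrays, in that order. At an unadjusted p under 0.05, 3 of the 9 were higher and 0 lower, against 4.99% and 2.48% of all genes. The class level was 0.14, 0.00 and 0.31 in KO replicates 1, 2 and 3 and -0.03, -0.25 and -0.18 in the WT arrays, so the groups did not overlap.

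Cspg4 encodes NG2, a surface proteoglycan of pericytes, and had the smallest p of the 40 genes. It was at 9.13, 9.25 and 9.28 in the KO arrays and at 8.90, 8.56 and 8.41 in the WT arrays. The 3 KO arrays lay close together, above the WT arrays, with a difference of 0.60 (SE 0.14, 1.51-fold, unadjusted p 0.00334, adjusted p 0.622 by limma). Rgs5, a regulator of G protein signalling enriched in pericytes, was at 10.20, 10.02 and 10.64 in KO and at 9.86, 9.55 and 9.80 in WT. The groups did not overlap and KO replicate 3 was the highest, with a difference of 0.55 (SE 0.17, 1.47-fold), which was 0.38 without that array. Rgs4, a gene of the same family and the next measured gene to Rgs5 on chromosome 1, was at 6.88, 6.90 and 7.12 in KO and at 6.74, 6.31 and 6.51 in WT. It did not overlap either, at a difference of 0.45 (SE 0.14, 1.36-fold), and, like Cspg4 and Tek, it stayed at an unadjusted p under 0.05 when each array was left out in turn.

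The ion channel pair of pericytes was next to each other as well. Kcnj8 and Abcc9 encode the pore and the sulfonylurea receptor subunit of one potassium channel gated by ATP, and they are adjacent measured genes on chromosome 6. Abcc9 was at 9.41, 9.28 and 9.34 in KO and at 9.25, 9.11 and 9.07 in WT, which did not overlap, while Kcnj8 was at 8.17, 7.89 and 8.36 in KO and at 7.92, 7.76 and 8.15 in WT, which did. The differences were 0.197 (SE 0.09) for Abcc9 and 0.195 (SE 0.15) for Kcnj8.

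Receptors of mural recruitment overlapped between groups. Pdgfrb, the receptor for platelet-derived growth factor B that draws pericytes to capillaries, differed by 0.21 (SE 0.12), and its KO replicate 3 value of 9.47 was apart from the other 5 arrays (8.98 to 9.18). Notch3, the mural Notch receptor, differed by 0.15 (SE 0.12). Mcam, the adhesion molecule CD146 of mural and endothelial cells, differed by 0.15 (SE 0.22) with replicate 2 low in both groups (9.92 in KO and 9.98 in WT). Higd1b, a mitochondrial membrane protein gene used as a pericyte marker, was at 4.66, 4.75 and 4.90 in KO and at 4.59, 4.47 and 4.57 in WT. These values did not overlap (difference 0.23, SE 0.10), but they are dim, with 12.6% of genes at or below this level.

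Promoters are shown for the 4 genes with the smallest p among the members that had one in the RefSeq promoter table (GRCm38.p6), which held 25 of the 40 genes. Prox1 and Des had the smallest p in the table among the lymphatic and smooth muscle genes, but their groups overlapped and their promoters are not printed. The table did not hold Myh11 or Myocd. Each run gives the 250 bases before the annotated start, 5′ to 3′ on the strand of the gene. Cspg4 lies at chr9:56864854-56865103 on the plus strand, Tek at chr4:94739039-94739288 on the plus strand, Rgs4 at chr1:169747643-169747892 on the minus strand and Rgs5 at chr1:169655251-169655500 on the plus strand. Capitals mark the ETS core GGAA and the core of the cAMP response element TGACG, each on either strand, where the latter is the kind of site that ATF and CREB proteins bind.
Cspg4: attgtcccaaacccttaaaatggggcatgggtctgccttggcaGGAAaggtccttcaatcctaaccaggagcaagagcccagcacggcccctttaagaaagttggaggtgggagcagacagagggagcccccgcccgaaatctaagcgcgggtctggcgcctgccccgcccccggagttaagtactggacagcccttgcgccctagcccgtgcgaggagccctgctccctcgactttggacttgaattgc
Tek: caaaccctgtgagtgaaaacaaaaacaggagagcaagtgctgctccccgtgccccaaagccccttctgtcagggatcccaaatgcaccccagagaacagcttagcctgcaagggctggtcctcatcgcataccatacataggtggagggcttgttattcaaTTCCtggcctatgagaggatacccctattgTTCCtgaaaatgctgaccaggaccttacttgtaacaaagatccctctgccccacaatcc
Rgs4: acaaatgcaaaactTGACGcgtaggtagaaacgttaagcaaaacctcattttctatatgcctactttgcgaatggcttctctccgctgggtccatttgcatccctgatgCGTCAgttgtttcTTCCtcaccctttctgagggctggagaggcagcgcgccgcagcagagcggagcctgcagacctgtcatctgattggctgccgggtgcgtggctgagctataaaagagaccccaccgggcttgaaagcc
Rgs5: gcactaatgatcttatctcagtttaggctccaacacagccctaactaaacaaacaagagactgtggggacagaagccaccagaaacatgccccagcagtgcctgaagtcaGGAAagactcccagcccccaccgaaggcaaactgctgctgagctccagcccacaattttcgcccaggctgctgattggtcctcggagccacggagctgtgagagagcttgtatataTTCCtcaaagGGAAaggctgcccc

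Of these 4 windows, the 1 of Rgs4 held the TGACG core, at 2 places, and all 4 held GGAA, at 1 to 3 places. Over windows that also take in 50 bases after the start, TGACG was present in 8 of the 25 members and in 20.8% of all 32851 promoter windows. A member counted if any of its windows held the motif, and some genes have several, whereas the share of all is per single window. The counts of members and the shares of all windows are therefore not like for like, here and for the motifs that follow. The full palindrome TGACGTCA was present in 2, Flt1 and Mcam, and in 1.79% of all. GGAA was present in 23 of 25 members and 96.0% of all windows, the E box CANNTG in 22 and 72.3%, and the CArG box, the site of serum response factor, in 0 of 25 and 1.63%. These motifs are short and can overlap one another, and a match describes the letters only, not a bound site.

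Smooth muscle genes were positive in 6 of 7, with a median of 0.20, which was 0.012 without WT replicate 1 and 0.008 without KO replicate 3. Myh11, the smooth muscle myosin heavy chain and the most specific gene of the class, was at 8.20, 8.17 and 8.48 in the KO arrays and at 7.87, 7.99 and 7.97 in the WT arrays. It was the only gene of these 7 (14.3%) without overlap and at an unadjusted p under 0.05. Of all genes, 13.9% did not overlap and 7.47% reached that p, in either direction. The difference in Myh11 was 0.34 (SE 0.11, 1.27-fold, adjusted p 0.622 by limma). Myocd, the coactivator that switches on contractile genes, was at 4.95, 5.09 and 5.46 in KO and at 4.81, 4.73 and 5.07 in WT. KO replicates 1 and 2 fell near WT replicate 3, and the difference was 0.30 (SE 0.16) on a dim probe set.

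The other contractile genes followed single arrays more than groups. Acta2, smooth muscle actin, was at 10.37, 10.21 and 10.87 in KO and at 9.74, 10.57 and 10.53 in WT. WT replicate 1 was low and KO replicate 3 high, and the difference of 0.20 (SE 0.26) was -0.07 without WT replicate 1. Tagln, the actin-binding protein SM22, and Cnn1, calponin, had the same pattern, with KO replicate 3 as the highest array at 7.80 and 7.75 and WT replicate 1 at the bottom at 7.05 and 6.23, a place it shared with KO replicate 2 in Cnn1. Their differences were 0.12 (SE 0.20) and 0.24 (SE 0.39). Lmod1, a leiomodin that nucleates actin filaments, differed by 0.05 (interval -0.23 to 0.33).

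Des, the intermediate filament desmin, was the 1 negative gene of the class, at 8.30, 7.62 and 8.02 in KO and at 7.82, 8.70 and 8.23 in WT (difference -0.27, SE 0.25). Desmin is shared with skeletal muscle, whose markers varied widely. The level of 30 skeletal muscle markers was 1.73 in WT replicate 2 and 1.15 in KO replicate 1, the 2 arrays highest in Des, and -1.08 in WT replicate 1 and -1.01 in KO replicate 2, the 2 lowest in Des. KO replicate 3 had the lowest muscle level, -1.12, but a middle value of Des. The summed signal of these markers ran from 2560 to 27100 in WT and from 2790 to 15500 in KO. With the muscle level as a covariate the difference in Des was -0.10, and the other 6 smooth muscle genes stayed positive. The part of skeletal muscle in the Des values was not tested beyond this covariate.

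The lymphatic genes showed no direction, with 2 positive and 3 negative differences and a median of -0.16, and 0 of 5 reached an unadjusted p under 0.05. Leaving out WT replicate 3 turned this median to 0.142, and leaving out KO replicate 3 turned it to 0.065. Lyve1, the hyaluronan receptor of lymphatic endothelium and of some macrophages, was at 9.92, 9.29 and 9.46 in the KO arrays and at 9.33, 9.35 and 10.48 in the WT arrays. Its difference was -0.16 (SE 0.33), and 0.22 without WT replicate 3, which stood more than 1 unit above the other WT arrays. Mmrn1, a multimerin secreted by lymphatic endothelium, was at 5.33, 5.09 and 5.24 in KO and at 5.16, 5.07 and 6.06 in WT. The same array was high, and the difference of -0.21 was 0.11 without it.

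Prox1, the master regulator of lymphatic identity, was at 6.32, 6.13 and 5.22 in KO and at 6.07, 6.01 and 6.4 in WT. KO replicate 3 was the low array here, and the difference of -0.27 (SE 0.28) was 0.065 without it. Flt4, VEGF receptor 3, differed by 0.02 (interval -0.32 to 0.37), and Pdpn, the mucin podoplanin, which stromal cells also make, by 0.18 (interval -0.29 to 0.65). WT replicate 3 was the highest array in Prox1, Flt4, Lyve1 and Mmrn1, and KO replicate 1 was highest in Pdpn. The class level was 0.48 in WT replicate 3, -0.14 and -0.20 in the other WT arrays, and 0.25, -0.09 and -0.29 in the KO arrays. The level of 15 macrophage markers was also the highest among the WT arrays in WT replicate 3, at 0.26, with 0.33 in KO replicate 1. The part of macrophages in the Lyve1 values was not tested.

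Markers of lymph node tissue, which has its own endothelium, varied between the samples. B cell markers (19 genes) were at a level of 0.54 to 0.81 in WT and at 0.05, 0.70 and -2.86 in KO replicates 1, 2 and 3. T cell markers (22 genes) were at 0.51 to 0.73 in WT and at -0.27, 0.56 and -2.13 in KO, with all 22 differences negative. Their summed signals ran from 17000 to 21100 and from 12500 to 14900 in WT, and from 2880 to 19400 and from 1810 to 13400 in KO. Markers of node stroma and high endothelial venules, the vessels through which lymphocytes enter, were negative in 18 of 19 genes, at levels of 0.29 to 0.43 in WT and of -0.05, 0.28 and -1.23 in KO. Glycam1, a mucin of those venules, was at 10.23, 11.33 and 5.27 in KO and at 11.64, 12.26 and 12.14 in WT, and the chemokine Ccl19 was at 11.24, 11.95 and 9.27 against 11.28, 11.78 and 11.79. KO replicate 3 thus had the least lymph node signal, KO replicate 2 about as much as WT and KO replicate 1 an amount between.

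**Figure D3:**
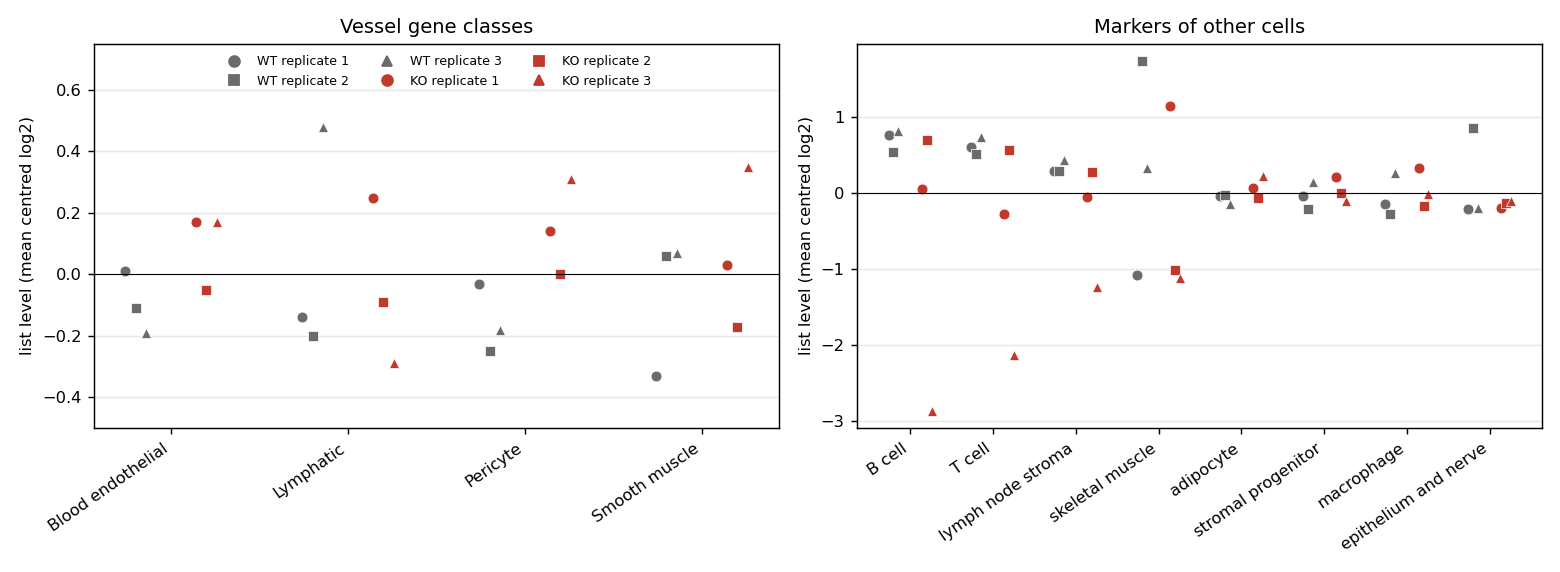
Level of each vessel class (left) and of marker lists of other cells (right) on each array, as the mean of log2 values after centring each gene, on different vertical scales. The pericyte level of every KO array lies above the WT arrays (-0.25 to -0.03), and KO replicate 3 is lowest for B cell (-2.86) and T cell (-2.13) markers.

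Within the KO group, the 2 arrays with less lymph node signal had the higher pericyte and blood endothelial levels, and the part of lymph node tissue in these values was not tested beyond the covariate that follows. KO replicate 2, with a lymphocyte score (the level of the B and T cell markers together) of 0.62, inside the WT range of 0.53 to 0.77, had a pericyte level of 0.00 and a blood endothelial level of -0.05. KO replicates 1 and 3, at -0.12 and -2.47, had pericyte levels of 0.14 and 0.31 and a blood endothelial level of 0.17 each. Adipocyte markers were positive in 12 of 16 genes with a median difference of 0.15, at levels of 0.07, -0.06 and 0.22 in KO and of -0.04, -0.03 and -0.15 in WT, so KO replicates 1 and 3 were the highest arrays there too. The part of adipocyte content in the vessel values was not tested. After adding the lymphocyte score to the fit, 12 of 19 blood endothelial, 8 of 9 pericyte, 3 of 7 smooth muscle and 3 of 5 lymphatic genes were positive. Cspg4 was then the 1 vessel gene of 40 at an unadjusted p under 0.05, against 3.93% of all genes, with a difference of 0.57, and Tek was at 0.51, Aplnr at 0.40, Rgs4 at 0.35 and Rgs5 at 0.305. Pecam1 and Plvap came to -0.06 and -0.003, and the differences of Cnn1, Acta2, Tagln, Robo4, Sox18, Mcam, Esam, Nos3, Eng and Prox1 changed sign. Without KO replicate 3, 5 of the 40 genes remained at an unadjusted p under 0.05 (Cspg4, Rgs4, Rgs5, Tek and Myh11), against 5.0% of all genes, and 29 of 40 were positive.

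**Figure D4:**
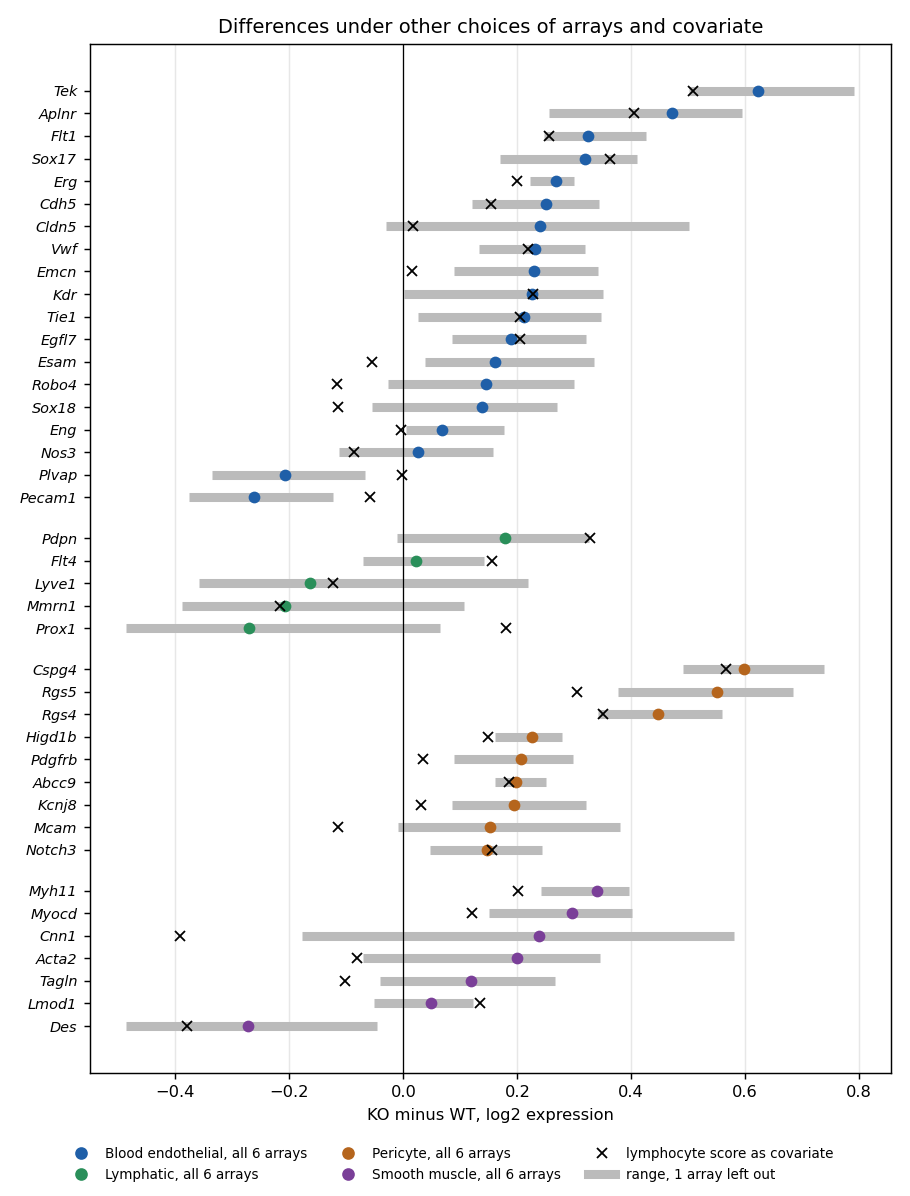
KO minus WT log2 difference of the 40 vessel genes with all 6 arrays (coloured points), with the lymphocyte score as a covariate (crosses) and as the range when 1 array at a time is left out (grey bars). Cspg4, Tek and Rgs4 stay above 0.3 throughout, whereas Cnn1 runs from -0.18 to 0.58 and is at -0.39 with the covariate.

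Other genes of the vessel pathways were read from 9 further lists, whose counts at an unadjusted p under 0.05 stand against the 4.99% of all genes higher and 2.48% lower, and whose genes without overlap stand against 7.96% above and 5.97% below. In the VEGF and angiopoietin system 11 of 14 measured genes were positive (median 0.22), with 3 higher at an unadjusted p under 0.05 and 0 lower. Vegfa, the main VEGF ligand, made by adipocytes among other cells, was at 10.14, 9.93 and 10.08 in KO and at 9.78, 9.63 and 9.28 in WT, a difference of 0.48 (SE 0.14, 1.4-fold). Nrp2, a co-receptor for VEGFs and semaphorins, was at 8.39, 8.39 and 8.48 in KO and at 8.09, 8.02 and 7.79 in WT (difference 0.45, SE 0.11). Vegfd, a ligand of Flt4, was at 9.31, 8.59 and 8.96 in KO and at 8.38, 8.56 and 8.43 in WT (0.50, SE 0.18). None of the 3 overlapped between groups, and all had an adjusted p of 0.622. After adding the lymphocyte score to the fit, 10 of the 14 genes were positive, with a median of 0.074 and 2 at that p.

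In the Notch and ephrin list, which covers artery and mural signalling, 15 of 16 genes were positive (median 0.12), with 4 higher and 0 lower at an unadjusted p under 0.05. Jag1, a Notch ligand of endothelium and mural cells, was at 8.72, 8.73 and 8.94 in KO and at 8.41, 8.31 and 8.26 in WT (0.47, SE 0.10). Heyl, a Notch target of mural cells, was at 7.53, 7.47 and 8.27 in KO and at 7.26, 6.89 and 7.08 in WT (0.68, SE 0.22), and 0.42 without KO replicate 3. Efnb2, the ephrin of arterial endothelium, differed by 0.28 (SE 0.09), and Hes1, a Notch target named after its value was seen, by 0.20. None of the 4 overlapped. Adjusting for that score, 9 of these 16 were positive, with a median of 0.054 and 2 at that p.

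Genes of platelet-derived growth factor and mural recruitment were positive in 21 of 24 (median 0.11), with 4 higher at an unadjusted p under 0.05 and 0 lower. Pdgfd, a ligand of Pdgfrb, was at 8.32, 7.75 and 8.46 in KO and at 7.47, 7.25 and 7.66 in WT (0.72, SE 0.20, 1.65-fold). Tbx18, a transcription factor of mural cells, was at 6.62, 6.62 and 7.04 in KO and at 6.23, 6.24 and 6.10 in WT (0.57, SE 0.14). With Heyl and Ndufa4l2, a pericyte gene of the respiratory chain family named after its value was seen (0.41), these made up the 4, and none overlapped. Of the further contractile genes, 19 of 27 were positive (median 0.09) and 1 was higher at an unadjusted p under 0.05, a share of 3.7% and so under the 4.99% of all genes. That gene was Fhl1, a LIM domain protein of muscle and fat (0.665, SE 0.24), whose groups overlapped. The regulatory myosin light chain Myl9 differed by 0.55 (SE 0.24) and the LIM protein gene Lpp by 0.21 (SE 0.09). Adjusting for the lymphocyte score, the mural recruitment median was 0.065 with 2 genes at that p, and the contractile median was 0.01 with 0.

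Endothelial transcription factors outside the member list were split, 11 positive and 12 negative (median -0.001), with 6 higher and 1 lower at an unadjusted p under 0.05. Tcf15 and its partner factor gene Meox2, which direct fatty acid handling in capillary endothelium, differed by 0.36 (SE 0.11) and 0.34, where Meox2 was named after its value was seen. Klf4, a flow-responsive factor, differed by 0.39 (SE 0.13), and Epas1, the hypoxia-inducible factor HIF-2 alpha, by 0.26 (SE 0.09). The gene lower in KO was Hhex, also named after its value was seen, at -0.42. When each array was left out in turn, 2 to 7 were higher and 0 to 6 lower, with 7 and 6 without KO replicate 2. Adjusting for the lymphocyte score, 17 of 23 were positive, with 2 higher and 0 lower.

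The bone morphogenetic protein, transforming growth factor and apelin list was even, with 9 positive and 9 negative (median 0.02), 3 higher at an unadjusted p under 0.05 and 0 lower. These were Bmp6, a ligand made by endothelium (0.52, SE 0.17), its type 2 receptor Bmpr2 (0.29, SE 0.12) and Apela, a second ligand of Aplnr (0.52, SE 0.12), which was dim at 4.14 to 4.85 on all arrays. In adhesion and junction genes 17 of 28 were positive (median 0.07), 4 were higher and 2 lower. Jam2, a junctional adhesion molecule of venules and lymphatics, was at 9.09, 8.91 and 9.31 in KO and at 8.67, 8.53 and 8.26 in WT (0.62, SE 0.15), the thrombin receptor gene Thbd differed by 0.61 (SE 0.17) and the sialomucin gene Podxl by 0.50 (SE 0.16). Palmd (0.51) and, on the lower side, Vcam1 (-0.56) and Icam1 (-0.55), which lymph node stroma also expresses, were named after their values were seen. With the lymphocyte score in the fit, 22 of 28 adhesion genes were positive (median 0.112), with 2 higher and 0 lower at that p. The bone morphogenetic protein list then had 12 of 18 positive (median 0.096), with 1 higher and 0 lower. Of all genes, 3.93% reached that p in either direction.

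Capillary lipid and transport genes move fatty acids, glucose and water through the vessel wall. Of 16 measured, 13 were positive (median 0.11), but none reached an unadjusted p under 0.05 on the higher side and 1 did on the lower. Gpihbp1, which holds lipoprotein lipase on the capillary surface, differed by 0.28 (SE 0.19), and the water channel gene Aqp1 by 0.29 (SE 0.18), both with overlapping groups. Slc2a1, the glucose transporter GLUT1, was the lower gene, at 8.36, 8.80 and 8.37 in KO and at 8.91, 9.12 and 8.96 in WT (-0.49, SE 0.14), without overlap. Adjusting for the lymphocyte score, 5 of these 16 were positive. In the further lymphatic genes 10 of 16 were positive (median 0.05), with the gap junction gene Gja1 higher (0.47, SE 0.18), and Thy1, which T cells and stroma share, lower (-0.52, SE 0.21). The platelet integrin gene Itga2b was at -0.30 (SE 0.14). With the lymphocyte score in the fit, 12 of these 16 lymphatic genes were positive (median 0.053), with 1 higher and 0 lower at that p.

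The counts of these lists depended on single arrays, most of all on KO replicate 2. Without it, the genes higher at an unadjusted p under 0.05 came to 6 in the VEGF list, 7 in the mural recruitment list, 6 in the contractile list, 9 in the adhesion list and 5 in the bone morphogenetic protein list. Genes lower at that p then came to 4 in the adhesion list, 3 in the bone morphogenetic protein list, 1 in the contractile list and 0 in the VEGF and mural recruitment lists, and 18.8% of all genes passed it in either direction. In the Notch list of 16, dropping WT replicate 2 left 1 gene, against 6.09% of all genes at that p in either direction. Dropping WT replicate 3, KO replicate 1 or KO replicate 2 left 2, against 3.96%, 3.8% and 18.8% of all genes.

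**Figure D5:**
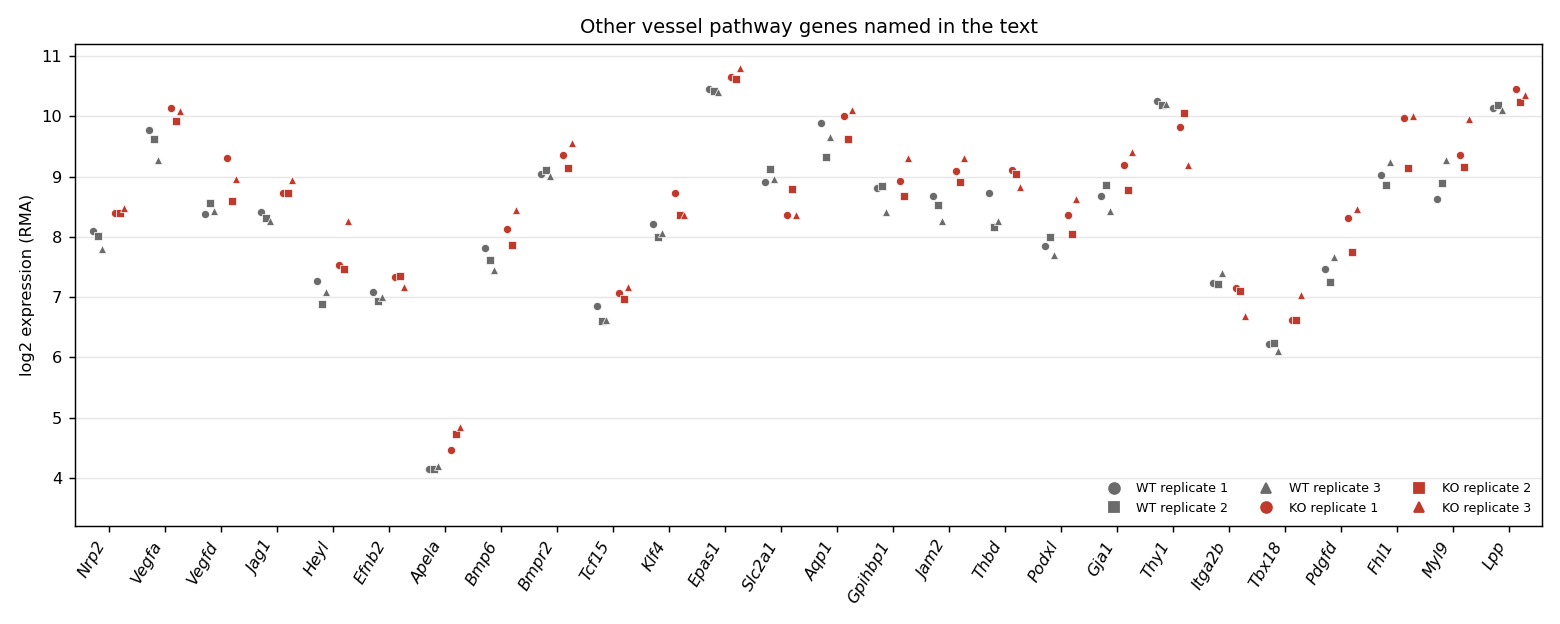
Log2 expression on each of the 6 arrays of 26 genes, those of smallest p per further vessel list, with WT in grey, KO in red and the marker shape giving the replicate number. Every KO point lies above every WT point in Nrp2, Vegfa and Jag1, and below in Slc2a1.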

How the data were processed

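Gene expression was measured on 6 arrays, 3 WT and 3 KO, grouped by sample title. The authors deposited log2 expression values per probe set, and RMA, affy and limma were named per the submitters' processing notes, without versions. The sources used here name no genome build for the arrays. RMA gives arrays nearly the same distribution, which hides any change common to most genes. Symbols came from the platform annotation, and 19855 of 19937 genes matched a RefSeq table (GRCm38.p6), used for gene order and names. A gene was its brightest probe set, with 1321 probe sets of several symbols and 11799 of no symbol not used.

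All 19937 genes were tested in R 4.3.3 by lmFit and eBayes of limma 3.58.1 (two-sided, Benjamini-Hochberg, adjusted p under 0.05), with moderated SE and 95% intervals, and checked on simulated data. An exact permutation test of 3 against 3 arrays cannot go below 0.1, and the number of arrays limits precision. Replicates are mice, per the series' design text. No pairing of arrays by replicate number was seen in their deviations from the group means.

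The members and all gene lists were chosen with earlier results of these data known. By rule, the text names the 40 members, Atf7, the 3 genes with the smallest p of each further vessel list and up to 2 of the brightest of each marker list, and says where a gene was chosen otherwise. The marker lists were B cell, T cell, node stroma, skeletal muscle, adipocyte, stromal progenitor, macrophage, and epithelium and nerve. Alternatives were 2 normalizations, a filter on dim genes, the mean of probe sets, all probe sets, the replicate number as a block, lymphocyte or muscle scores as covariates, and each array left out.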

Additional observations from a re-analysis of the deposited data

How the results depend on the processing

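The scaling alternatives turned the sign of 0 of the 40 vessel genes. Over the alternatives run, 24 kept their sign in all and 16 turned somewhere, and none passed adjustment (lowest adjusted p 0.174). The cause of these turns was not tested. All genes past adjusted p were 1 with the mean of probe sets and 2 over all probe sets. Genes at an unadjusted p under 0.05 were 783 (456 higher, 327 lower) with the lymphocyte score, 940 (629, 311) with the muscle score, and 758 to 3757 with an array left out (560 to 2068 higher, 192 to 1689 lower). Lower genes were 291 without dim genes. The lymphocyte score left 1 vessel gene of 40 at that p, against 3.93% of all genes. Leaving arrays out gave 5 to 10 of 40, against 3.8% to 18.8% of all genes. Then 10 to 20 of the 40 showed no overlap, against 19.2% to 38.3% of all genes. With the replicate number as a block, 10 vessel genes and 1383 of all genes reached it. Such a block cannot change a difference or its sign here, because each number occurs once in each group. The pairing check gave correlations of -0.143, -0.079 and -0.0446 between deviations of arrays with the same number, so no pairing by number was seen.

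The lymphatic median was 0.023 without dim genes, 0.156 with the lymphocyte score and -0.344 to 0.142 with an array left out. The smooth muscle median was -0.082 with the lymphocyte score and 0.008 without KO replicate 3. With that score the differences were -0.004 for Eng, -0.055 for Esam, -0.117 for Robo4, -0.114 for Sox18, -0.086 for Nos3, 0.18 for Prox1, -0.115 for Mcam, -0.082 for Acta2, -0.102 for Tagln and -0.392 for Cnn1. With an array left out they ran from -0.031 to 0.502 for Cldn5, -0.027 to 0.3 for Robo4, -0.055 to 0.27 for Sox18, -0.113 to 0.157 for Nos3, -0.486 to 0.065 for Prox1, -0.071 to 0.142 for Flt4, -0.358 to 0.219 for Lyve1, -0.011 to 0.326 for Pdpn and -0.388 to 0.107 for Mmrn1. They ran from -0.01 to 0.381 for Mcam, -0.07 to 0.345 for Acta2, -0.041 to 0.266 for Tagln, -0.178 to 0.58 for Cnn1 and -0.051 to 0.123 for Lmod1. The dim filter leaves out Prox1, Mmrn1, Higd1b, Myocd and Lmod1.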

Other observations

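Of the nerve and epithelial markers, 3 of 10 had positive differences. An unadjusted p under 0.05 was reached by 2 on the higher side and 0 on the lower, against 4.99% and 2.48% of all genes. Mbp, a myelin protein gene, was at 8.73, 8.86 and 8.57 in KO and at 8.43, 8.25 and 8.50 in WT, a difference of 0.32 (SE 0.12) without overlap. S100b, a calcium-binding protein gene of Schwann cells and adipocytes, chosen after its values were seen, was at 6.58, 6.4 and 6.92 against 6.05, 6.15 and 5.93 (0.59, SE 0.15). Both had a limma adjusted p of 0.622, and Ngfr, the low-affinity neurotrophin receptor gene, differed by -0.16 (SE 0.11). The list of 10 such markers was at 0.86 in WT replicate 2 and between -0.21 and -0.11 on the other 5 arrays. The epithelial genes Krt5, Krt14, Krt8, Krt18, Epcam and Elf5, named after their values were seen, were all negative and all highest on that array. Krt8 was at 9.24 there and at 6.22 to 6.64 on the others. Mbp was at its lowest there, and Sox10, also named after its value was seen, differed by 0.02 (SE 0.11).

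The bright adipocyte marker Car3, a carbonic anhydrase gene, was at 13.54, 13.53 and 13.58 in KO and at 13.53, 13.64 and 13.51 in WT. Of the 16 adipocyte markers, 2 were higher and 0 lower at an unadjusted p under 0.05, against 4.99% and 2.48% of all genes. Stromal progenitor markers were at 0.21, 0.00 and -0.11 in KO and at -0.04, -0.21 and 0.15 in WT. Of these 16 genes, 12 were positive with a median of 0.054, and 2 were lower at that p with 0 higher. Those 2 were Icam1 and Thy1, already counted in the adhesion list and the further lymphatic list. Macrophage markers were positive in 12 of 15.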
